A study of Mus musculus with 41 samples.

Results

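Gene expression was compared between microglia of mice with Niemann-Pick type C disease (NPC) and of wild-type (WT) mice at 9 weeks of age. The comparison takes 3 NPC and 4 WT libraries, 7 of the 41 libraries of the series, chosen by their labels as untreated animals of that age. WT mice had the strain label balb/c and NPC mice the label BALB/cNctr-Npc1m1N/J, and the labels give no zygosity. Neither group was treated. In both groups, cells positive for CD11b and Tmem119 were sorted from the cerebellum and their RNA was amplified with SMART-seq v4 chemistry. The study also holds both genotypes at 1, 3 and 6 weeks and a separate treatment arm of NPC mice that enters no comparison here. Each library is 1 mouse as far as the labels and the design text say. In the main fit, p-values rest on the variation among mice within a group. That variation was pooled over 31 untreated libraries in 8 groups of all ages, and not taken from these 7 libraries alone.

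Npc1 is a membrane protein of late endosomes and lysosomes that passes cholesterol, received from the soluble protein Npc2, out of the lysosome. The Npc1m1N allele carries a retrotransposon-like insertion that truncates the protein, and cholesterol and glycosphingolipids then accumulate in lysosomes. In the cerebellum, where Purkinje cells are lost in this disease, microglia are the resident macrophages that clear debris, present antigen and answer injury with a state known for lysosomal, lipid-handling and phagocytic genes and for lower levels of the genes of resting microglia.

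Whole reads could be recovered from the deposited normalized counts, and the 7 libraries held 27.1 to 34.4 M reads each (M, 1e+06) and 13251 to 14013 genes with at least 3 reads. These depths cover counting error only, since several reads can come from 1 molecule. Across genes, Spearman correlations were 0.9847 to 0.9893 within a genotype and 0.9488 to 0.9671 between genotypes. The first principal component of the 7 libraries took 47.8% of the variance and separated the genotypes, and the second took 13% and set WT replicate A apart from the other libraries. NPC replicates A and C each stood apart in a set of genes. Replicate A had the highest summed level of myelin and astrocyte markers, and replicate C had the highest level of several immediate early genes, the transcripts that rise within minutes of a stimulus.

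The label of the mutant group was checked first. Npc1 was measured at 4888, 5166, 6767 and 6409.6 normalized counts in WT and 785, 430.4 and 672 in NPC. All 3 NPC libraries lay below all 4 WT libraries, and Npc1 was 9.42-fold (6.54 to 13.6) lower (95% confidence interval in parentheses, here and below; adjusted p = 2.53e-10). Of the 10 microglia markers, all were detected in every library at levels that summed to 1606000 to 1868000 normalized counts in WT and 1032000 to 1312000 in NPC. Tmem119, whose protein served for the sort, was at 295776, 246424, 265914 and 280400.2 normalized counts in WT and 122899, 132484 and 122897 in NPC, and it fell 2.15-fold (1.69 to 2.75). Itgam, which encodes CD11b, the other sort marker, was at 44584, 51905, 65272 and 50964 normalized counts in WT and 28714, 37144 and 27765 in NPC. It fell 1.70-fold (1.24 to 2.34), but with an adjusted p of 0.0151 that rose to 0.0568 when WT 9w replicate C was left out, to 0.0722 when NPC 9w replicate A was, to 0.0705 when NPC 9w replicate C was and 0.0963 after quantile normalization. Csf1r, the receptor on which microglia depend for survival, was the most abundant of the markers and did not pass (588772 ± 52957 normalized counts in WT and 474346 ± 46469 in NPC as mean ± SD, with n = 4 WT and n = 3 NPC libraries here and below, log2 change -0.31 ± 0.14 SE, adjusted p = 0.122). In bulk RNA, fewer cells of a type and less RNA per cell cannot be told apart.

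Of 14046 genes tested, 1574 rose in NPC (11.2%) and 1091 fell (7.77%), together 19.0%. Here and below, rose and fell mean an adjusted p below 0.05 in limma, a linear model fitted to log2(normalized counts + 1) in all 31 untreated libraries, and fold changes on that scale understate the change of genes with low counts. The median log2 change over all genes tested was 0.0274. A fold of at least 2 was reached by 891 of the genes that rose and 375 of those that fell, a fold of at least 4 by 522 and 107, and a fold of at least 8 by 275 and 32. The NPC libraries all lay above or all below the WT libraries for 5371 genes (38.2%), and this held for 2569 of the 2665 genes that passed. Lack of overlap in a gene that passed, where given below, is therefore not a separate result. Without NPC 9w replicate A the counts were 998 higher and 643 lower. When every library was rescaled to the same total, 1418 genes were higher and 1491 lower, so that higher genes made up 48.7% of the calls in place of 59.1%. Where a list below is said to hold no member that passed in 1 direction by limma, an unadjusted p below 0.05 in that direction was also reached by none, except 1 homeostatic and 1 neuron gene that were higher and 1 cholesterol, 2 iron and 1 erythrocyte gene that were lower. In the same lists and directions edgeR called none and DESeq2 called 1 homeostatic and 1 neuron gene.

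**Figure D1:**
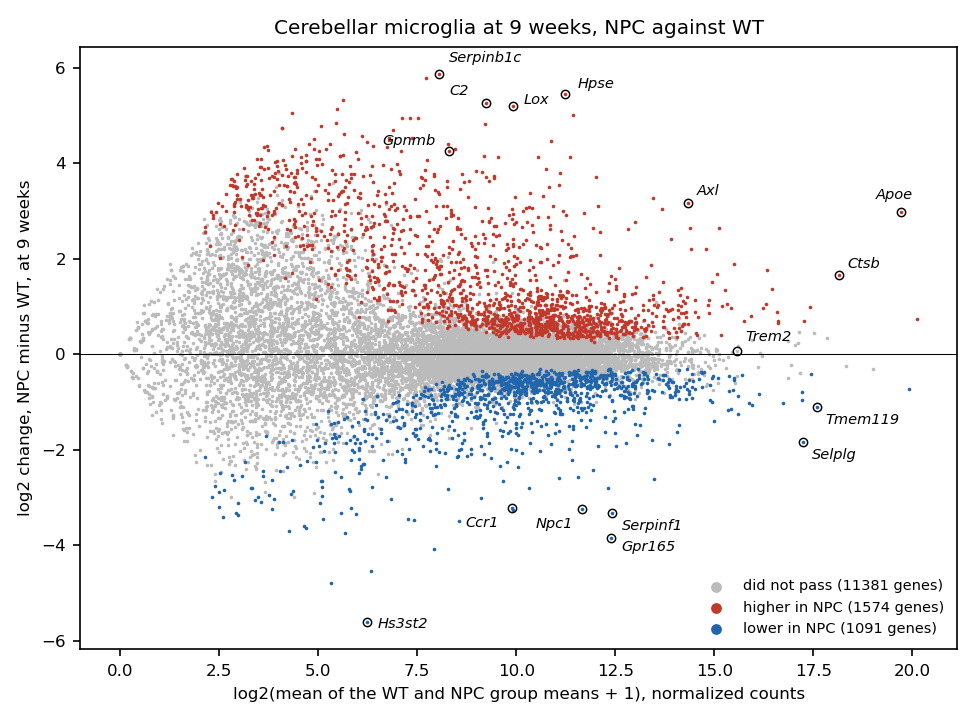
Log2 change in NPC against WT microglia at 9 weeks (vertical axis) against the log2 mean level in normalized counts (horizontal axis), 1 point per gene tested, with 1574 genes higher in NPC in red, 1091 lower in blue and those that did not pass in grey. Circled genes are named in the text. The rises of Hpse and Lox and the fall of Hs3st2 lie near the edges, and Apoe combines a high level with a rise.

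The 20 largest rises ran from 20.1-fold to 57.99-fold. They were chosen among genes that passed, had no overlap between the groups and averaged 100 normalized counts or more in the higher group. Serpinb1c, a member of the intracellular serine protease inhibitors, was at 21.5, 15.7, 4.96 and 1.67 normalized counts in WT and 578, 439 and 519.6 in NPC. Plet1, which encodes a glycosylphosphatidylinositol-anchored surface protein, was at 13.3, 16.8, 2.98 and 1.67 normalized counts in WT and 455, 253 and 535 in NPC. In both genes the NPC libraries were far above the WT libraries, which held at most 21.5 normalized counts. The rises were 57.99-fold (19.2 to 175) and 54.95-fold (12.2 to 247). Hpse, the heparanase that cuts heparan sulfate chains of the extracellular matrix, was at 132, 163, 89.3 and 67.8 normalized counts in WT and 4601, 5090.4 and 4391 in NPC. The lowest NPC value of Hpse was many times the highest WT value, and the gene rose 43.4-fold (24.8 to 76.1) (adjusted p = 5.13e-11).

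Lox, the lysyl oxidase that cross-links collagen and elastin, was at 54.2, 66.0, 45.6 and 36.8 normalized counts in WT and 1699, 2348 and 1587 in NPC and rose 36.6-fold (22.4 to 59.9). Chst2, a sulfotransferase that modifies N-acetylglucosamine of glycan chains, was at 252, 172, 136 and 125 normalized counts in WT and 5636, 4199 and 6306 in NPC and rose 32.00-fold (19.6 to 52.3). Both genes had a spread within NPC far smaller than the difference. Igf1, the insulin-like growth factor, went from 39.9 ± 10.6 to 1133 ± 243 normalized counts. Gpx3, a secreted glutathione peroxidase, was at 247, 152, 161 and 69.4 normalized counts in WT and 6356, 2216 and 2300.2 in NPC, so that NPC replicate A was well above the other NPC libraries and all 3 were above WT. Rragd, a Rag GTPase that recruits the growth kinase complex mTORC1 to lysosomes, was at 11.2, 53.4, 24.8 and 34.3 normalized counts in WT and 537, 639.8 and 588 in NPC, and its rise was 21.1-fold (12.5 to 35.5). The remaining large rises were those of the complement gene C2, the collagen chain Col8a2, the glypican Gpc4, the cation channel Trpm3, the adhesion ligand Madcam1, Wdr86, the RNA-binding protein Cpeb1, the sulfatase Sulf1, the keratin Krt18, Plet1os, the chemokine gene Cxcl11 and Cyb561, by 20.1-fold to 38.2-fold. RefSeq lists Cxcl11 as a transcribed pseudogene, and Plet1os overlaps Plet1, so that reads of these partners could not be told apart without strand. All 20 kept their call in every alternative that was run.

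The 20 largest falls, chosen by the same rule, ran from 6.11-fold to 48.4-fold, and all of these also passed in every alternative that was run. Hs3st2, which adds sulfate to heparan sulfate, was at 98.1, 119, 169.7 and 199 normalized counts in WT and 2.22, 1.06 and 2.80 in NPC. The NPC libraries held 1 to 3 reads of this gene, and the fitted fall was 48.4-fold (16.98 to 138). Adra2a, a receptor for noradrenaline, was at 334, 409, 602 and 483 normalized counts in WT and 16.7, 36.1 and 28.0 in NPC and fell 16.8-fold (8.19 to 34.4). Gpr165, an orphan receptor, was at 9061, 8733, 12478 and 10100.0 normalized counts in WT and 782, 759.8 and 561 in NPC and fell 14.4-fold (10.4 to 20.00). Serpinf1, which encodes the secreted pigment epithelium-derived factor, was at 9399.6, 7629, 9757 and 12830.2 normalized counts in WT and 1092, 819 and 1009 in NPC and fell 10.1-fold (7.61 to 13.3) (adjusted p = 9.08e-13).

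Lack of overlap and a WT mean of at least 100 normalized counts were required by the rule that chose these falls, so neither is a separate result. Cnn2, an actin-binding calponin, was at 2214, 2421, 2263 and 2105 normalized counts in WT and 322, 319 and 323 in NPC, the tightest NPC group among the 20. Tmem176a and its neighbour Tmem176b, membrane proteins of the same family, fell 6.94-fold and 6.11-fold. Sema6d, a transmembrane semaphorin, fell 8.02-fold (4.35 to 14.8). Wisp1, Gp9, Scube1, the lipid flippase gene Atp8b1, Umodl1, Trp53i11, Npc1 itself, Ccr1, Apobec2, Tlr5, the transcription factor Sox12 and Csmd3 made up the rest.

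**Figure D2:**
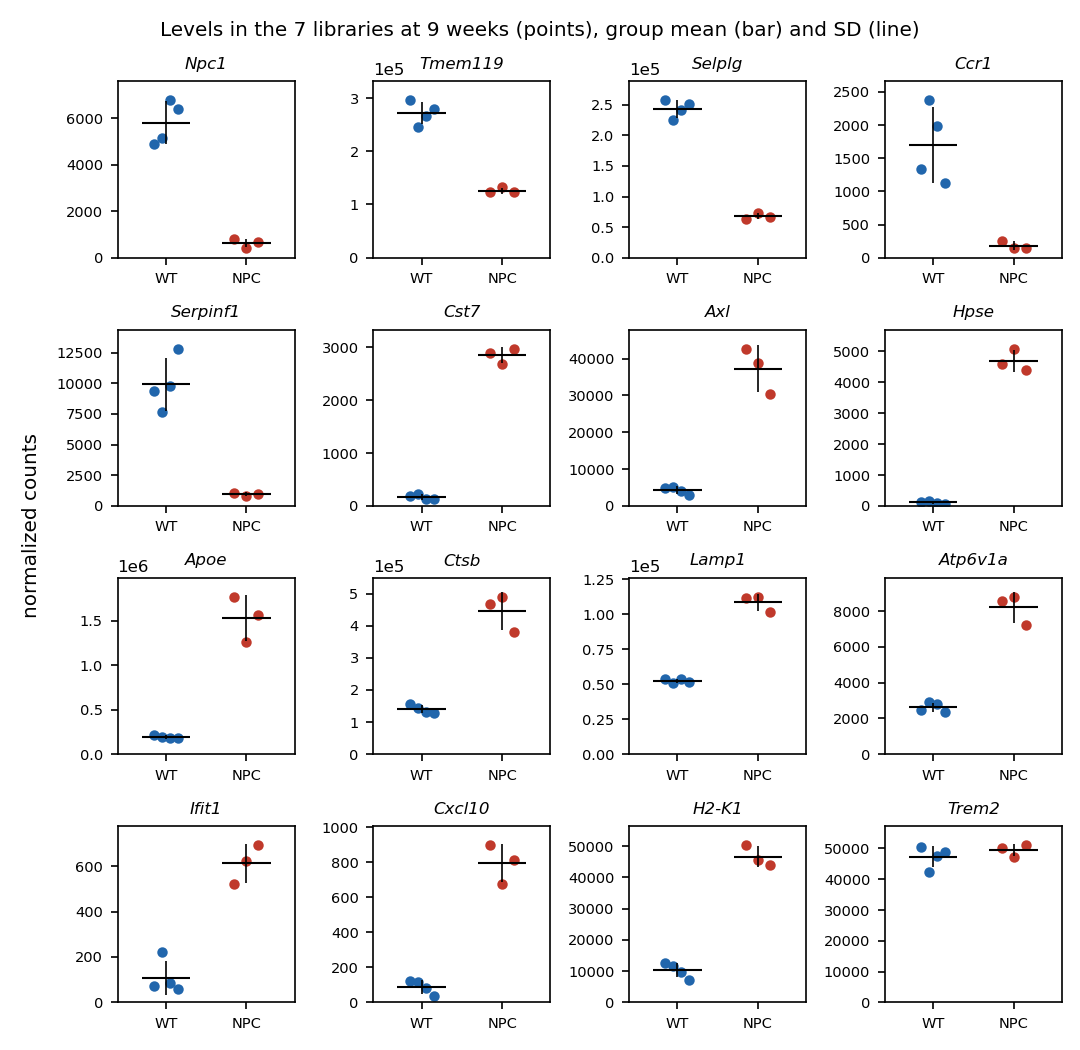
Normalized counts (vertical axes, linear and from 0) of 16 genes in each of the 4 WT and 3 NPC libraries at 9 weeks. Points are libraries, horizontal bars are group means and vertical lines span 1 SD on each side. The groups did not overlap for 15 of the genes, and they overlapped for Trem2.

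Genes of the state known as disease-associated microglia, which forms around plaques and in storage disease, rose in the largest share among the 28 lists. Of 44 members tested, 37 rose and none fell, beside 11.2% of all genes rising, and the list's median log2 change was 2.23. Cst7, an inhibitor of cysteine proteases, was at 196, 224, 127 and 125 normalized counts in WT and 2883, 2681 and 2974 in NPC. It rose 17.4-fold (11.1 to 27.3) with no overlap and a small spread in both groups. Axl, a receptor tyrosine kinase that binds phosphatidylserine on dying cells through the bridging ligand Gas6, was at 4872, 5124, 4160.1 and 2835 normalized counts in WT and 42681, 38798 and 30360.2 in NPC and rose 8.91-fold (6.26 to 12.7). Cd22, a sialic acid-binding receptor that restrains phagocytosis, was at 309.8, 309, 454 and 167 normalized counts in WT and 4150.5, 4586 and 3483 in NPC and rose 13.8-fold (9.29 to 20.5).

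Further members of this list showed the same direction at widely differing levels. Apoe, the lipoprotein that carries cholesterol between brain cells, was at 217781, 188487, 185863 and 176057 normalized counts in WT and 1767173, 1255704 and 1559075 in NPC, with every NPC library several times above every WT library and a rise of 7.90-fold (4.24 to 14.7). Gpnmb, a glycoprotein of lysosomes and melanosomes, was at 41.9, 26.2, 29.8 and 21.7 normalized counts in WT and 574, 849 and 382 in NPC and rose 19.04-fold (5.64 to 64.2). Itgax, which encodes CD11c, rose 4.65-fold (2.86 to 7.58) from 937 ± 181 to 4359 ± 883 normalized counts. Clec7a, the beta-glucan receptor Dectin-1, rose 4.97-fold (3.17 to 7.79) from 575 ± 66.4 to 2902 ± 695 normalized counts. Lgals3bp, a secreted glycoprotein that binds galectins, rose 6.20-fold (4.31 to 8.90). Trem2, the lipid receptor needed for this state, was at 50321, 42462, 47474 and 48909 normalized counts in WT and 50218, 47305 and 51065 in NPC, with overlapping groups, a log2 change of 0.07 ± 0.18 (SE) and an adjusted p of 0.84. Its signalling adaptor Tyrobp rose, as did Spp1, Lpl, Lgals3, Lyz2 and Fabp5. The members that did not pass beside Trem2 were Ccl6 (log2 change 0.10 ± 0.27, adjusted p = 0.85), Cd52, Ch25h, Mamdc2, Postn and Flt1.

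The lysosome itself was represented by 3 lists: proteases and their inhibitors, subunits of the vacuolar proton pump (V-ATPase) that acidifies it, and hydrolases with membrane proteins. Each shares genes with the disease-associated list, among them Cst7, Ctsb, Ctsd, Atp6v0d2, Cd63 and Gpnmb, so the counts of these lists are not independent. Of 17 protease genes tested, 9 rose and 1 fell, with a median log2 change of 0.41. After quantile normalization 8 rose and 4 fell, with a median of 0.17, and after rescaling to the same total 9 rose and 3 fell. Ctsb, the cysteine protease cathepsin B, was at 155323, 143104, 132111 and 128713 normalized counts in WT and 467820.4, 489500.0 and 378715 in NPC and rose 3.17-fold (2.47 to 4.08). Ctse, an endosomal aspartic protease, rose 6.60-fold (4.21 to 10.4) from 257 ± 76.8 to 1692 ± 543 normalized counts. Ctsa and Ctsz rose 1.61-fold and 1.85-fold. Ctsd, the main aspartic protease and one of the most abundant transcripts, was at 859125 ± 82215 normalized counts in WT and 1425460.4 ± 52212 in NPC and rose 1.66-fold (1.37 to 2.02), a call that was lost after quantile normalization (adjusted p = 0.279). The 2 most abundant members that did not pass were Ctss (log2 change 0.34 ± 0.21, adjusted p = 0.286) and Lgmn (log2 change -0.23 ± 0.13, adjusted p = 0.232). Cst3, the secreted inhibitor cystatin C, was the member that fell.

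Of 20 V-ATPase subunits, 8 rose and 1 fell, with a median of 0.38. Atp6v1a, the catalytic A subunit, was at 2464, 2896, 2783 and 2369 normalized counts in WT and 8593, 8797 and 7229 in NPC, so that the lowest NPC library was far above the highest WT library, and it rose 3.12-fold (2.58 to 3.77) (adjusted p = 3.56e-10). Atp6v1b2, Atp6v1d, Atp6v1g1 and Atp6v0d1 rose 1.56-fold to 2.07-fold. Atp6v0a2, an isoform of the membrane subunit a, fell 1.71-fold (1.40 to 2.08). Tcirg1, another isoform of that subunit, and the accessory subunit Atp6ap1 did not pass: Tcirg1 (log2 change -0.15 ± 0.22, adjusted p = 0.701) and Atp6ap1 (log2 change 0.34 ± 0.18, adjusted p = 0.221). Without NPC 9w replicate B or without replicate C, 5 subunits rose in place of 8, and with array weights 13. Without WT 9w replicate B 2 subunits fell.

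Of 53 hydrolases and lysosomal membrane proteins, 26 rose and 4 fell, Npc1 among the latter, with a median of 0.36. Lamp1, the most abundant glycoprotein of the lysosomal membrane, was at 53373, 50752, 53585 and 51664 normalized counts in WT and 111501, 112430.4 and 101682 in NPC and rose 2.07-fold (1.71 to 2.51). Cd63, a tetraspanin of late endosomes, rose 4.64-fold (3.14 to 6.84) from 7711 ± 913 to 35634 ± 2476 normalized counts. Acp5, the tartrate-resistant acid phosphatase, rose 12.5-fold (7.61 to 20.5) from 30.7 ± 9.73 to 384 ± 67.9 normalized counts. Grn, the source of progranulin, and Man2b1, an alpha-mannosidase, rose 2.00-fold and 1.94-fold. Hexa, a hydrolase of gangliosides, did not pass: Hexa (log2 change -0.05 ± 0.16, adjusted p = 0.86). Npc2, the partner of Npc1 inside the lysosome, rose, and so did the enzymes of glycosphingolipid breakdown Gla, Glb1 and Galc. The others that fell were Arsb, Ppt2 and Slc29a3.

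Promoters of lysosomal genes often hold the motif CACGTG, to which the transcription factors Tfeb and Tfe3 bind, and the promoters below are shown because they hold it and belong to genes that rose. Capitals mark each match; the motif reads the same on both strands. The sequences come from RefSeq (build GRCm38.p6), run 5′ to 3′ on the gene's strand, and cover 250 bases before to 50 bases after the start. They lie at chr8:13158911-13159210 on the plus strand for Lamp1, chr16:44139210-44139509 on the minus strand for Atp6v1a and chr9:114400828-114401127 on the plus strand for Glb1.
Lamp1: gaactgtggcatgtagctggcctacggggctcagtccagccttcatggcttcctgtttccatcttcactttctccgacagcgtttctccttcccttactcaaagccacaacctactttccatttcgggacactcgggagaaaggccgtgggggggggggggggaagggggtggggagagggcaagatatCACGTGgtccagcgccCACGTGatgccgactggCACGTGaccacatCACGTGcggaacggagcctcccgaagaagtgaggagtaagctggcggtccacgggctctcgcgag
Atp6v1a: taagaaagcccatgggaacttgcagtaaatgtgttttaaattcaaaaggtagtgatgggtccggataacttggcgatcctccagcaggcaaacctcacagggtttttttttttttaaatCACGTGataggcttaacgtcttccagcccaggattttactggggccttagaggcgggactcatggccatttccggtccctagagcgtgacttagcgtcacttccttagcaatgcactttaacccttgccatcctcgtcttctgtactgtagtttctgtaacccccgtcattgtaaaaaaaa
Glb1: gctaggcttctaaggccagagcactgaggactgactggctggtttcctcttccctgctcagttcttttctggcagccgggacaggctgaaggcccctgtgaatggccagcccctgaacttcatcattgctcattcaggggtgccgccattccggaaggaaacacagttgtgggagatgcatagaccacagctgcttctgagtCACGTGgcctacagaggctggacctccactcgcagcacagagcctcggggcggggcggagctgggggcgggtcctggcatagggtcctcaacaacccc

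The Lamp1 promoter held 4 matches within 61 bases of the start, and those of Atp6v1a and Glb1 held 1 each. Among genes tested with a promoter in RefSeq, 1296 of 11123 held the motif (11.7%). The shares were 5 of 12 for the proteases (41.7%), 4 of 14 for the V-ATPase (28.6%) and 12 of 42 for the hydrolases and membrane proteins (28.6%). Among members that rose, 3 of 6, 2 of 5 and 7 of 23 held it.

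Cholesterol synthesis and uptake rose in part. Of 28 genes tested, 10 rose and none fell, with a median log2 change of 0.35. Sqle, the squalene epoxidase, was at 169.7, 171, 236 and 106 normalized counts in WT and 555, 579 and 384 in NPC, with NPC libraries all above WT, and rose 3.02-fold (2.23 to 4.09). Srebf2, the transcription factor that drives this pathway when membrane cholesterol is low, rose 1.84-fold (1.54 to 2.21) from 1206 ± 85.4 to 2247 ± 447 normalized counts. Hmgcs1, an early enzyme of the pathway, did not pass. The most abundant members that did not pass were Scap (log2 change -0.29 ± 0.15, adjusted p = 0.195) and Mylip (log2 change -0.38 ± 0.15, adjusted p = 0.0812). Leaving out NPC 9w replicate A gave 5 that rose, and with a replicate block 4; 3 members were lower after rescaling to the same total, and 1 when replicate B of either genotype was left out. The sterol response motif TCACNCCAC was found in 1 of 20 promoters of this list (5.0%) and in 1.37% of all, and in 0 of the 7 promoters of members that rose.

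Of 37 genes of lipid efflux, transport and storage, 15 rose and 3 fell, with a median of 0.47. Dgat2, which makes the last step of triglyceride synthesis, was at 331, 279, 233 and 198 normalized counts in WT and 1817, 1798 and 1666 in NPC and rose 6.86-fold (4.99 to 9.44) (adjusted p = 3.31e-10), with non-overlapping and tight groups. Plin3, which coats lipid droplets, rose 2.93-fold (2.37 to 3.63). Msr1, a scavenger receptor for modified lipoproteins, rose 7.17-fold (4.35 to 11.8) from 170.5 ± 91.5 to 1143 ± 413 normalized counts. Apoc2, the cofactor of lipoprotein lipase, rose 15.7-fold (6.45 to 38.4), and Fabp5, a fatty acid-binding protein, 10.6-fold (5.29 to 21.2). The cholesterol efflux pumps Abca1 and Abcg1 and their regulators Nr1h2 and Nr1h3 did not pass. Lpcat3, Cyp27a1 and Lipe fell. Scd2 and Lrp1, the most abundant members that did not pass, had small changes: Scd2 (log2 change -0.10 ± 0.15, adjusted p = 0.708) and Lrp1 (log2 change 0.07 ± 0.41, adjusted p = 0.926).

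Most members of the interferon list rose. Of 64 genes tested, 42 rose and none fell, with a median log2 change of 1.42, and 52 had non-overlapping groups, as did 38.2% of all genes. Ifi44l, an interferon-induced gene, was at 133, 197, 71.4 and 46.0 normalized counts in WT and 1245, 1274 and 1274 in NPC and rose 12.98-fold (6.84 to 24.7). Ifit2, which binds foreign RNA, was at 299, 507, 226 and 187 normalized counts in WT and 2125, 2892 and 2212 in NPC and rose 8.40-fold (5.25 to 13.4). Ifit1, of the same family, was at 70.5, 219.9, 85.3 and 60.2 normalized counts in WT and 523, 622 and 692 in NPC; WT replicate B was above the other WT libraries and below all NPC libraries, and the rise was 6.37-fold (3.80 to 10.7). Usp18, a feedback inhibitor of the interferon receptor, and Ifi44 rose 5.90-fold and 5.93-fold. Irf7 and the signal transducer Stat2 rose. The most abundant members that did not pass were Irf9 (log2 change 0.35 ± 0.14, adjusted p = 0.085) and Irf1 (log2 change -0.07 ± 0.13, adjusted p = 0.763). The Ifit, Oas, Ifi and Slfn families hold close copies, between which reads could have been split.

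Interferon-induced promoters carry a response element whose core is GAAA, any 2 bases and GAAA. The promoters of Ifit1 (chr19:34640639-34640938 on the plus strand), Ifit3 (chr19:34583279-34583578 on the plus strand) and Cxcl10 (chr5:92348840-92349139 on the minus strand) are shown with the core on either strand in capitals, from the same source and with the same limits as above, because all of these genes rose.
Ifit1: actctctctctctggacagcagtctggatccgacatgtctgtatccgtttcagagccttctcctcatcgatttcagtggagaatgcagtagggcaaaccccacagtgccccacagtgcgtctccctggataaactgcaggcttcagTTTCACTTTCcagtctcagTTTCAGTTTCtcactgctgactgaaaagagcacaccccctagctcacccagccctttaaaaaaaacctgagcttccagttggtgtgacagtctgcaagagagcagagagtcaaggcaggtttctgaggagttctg
Ifit3: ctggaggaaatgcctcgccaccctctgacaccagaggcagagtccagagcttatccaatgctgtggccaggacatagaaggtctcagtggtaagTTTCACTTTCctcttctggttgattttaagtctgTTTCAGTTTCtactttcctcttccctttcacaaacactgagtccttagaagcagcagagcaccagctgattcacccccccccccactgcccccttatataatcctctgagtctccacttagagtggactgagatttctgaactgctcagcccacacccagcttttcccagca
Cxcl10: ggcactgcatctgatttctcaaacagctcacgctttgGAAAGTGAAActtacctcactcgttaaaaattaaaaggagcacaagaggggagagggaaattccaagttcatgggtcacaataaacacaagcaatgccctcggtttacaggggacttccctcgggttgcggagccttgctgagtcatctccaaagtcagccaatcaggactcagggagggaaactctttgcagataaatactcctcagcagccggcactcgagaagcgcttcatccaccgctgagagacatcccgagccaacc

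The core was found in 27 of 47 promoters of the interferon list (57.4%), 4 of 17 of the MHC class I list (23.5%) and 3.78% of all 11123. Among the 30 interferon genes that rose and had a promoter, 17 held it. The share was thus about the same in members that rose (56.7%) as in the whole list.

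Of 21 genes of presentation through MHC class I, 8 rose and 3 fell, with a median of 0.34. H2-K1, a classical heavy chain, was at 12482, 11762, 9698 and 7305 normalized counts in WT and 50290.4, 45603 and 43883 in NPC and rose 4.61-fold (3.23 to 6.56), and H2-D1 and H2-Q4 rose 5.30-fold and 4.52-fold. The heavy chains are near-identical copies and differ between mouse strains, so the split of reads among them is uncertain. B2m, their shared light chain, rose 2.08-fold (1.47 to 2.94), and Psme1, a proteasome activator, 1.64-fold (1.31 to 2.05). The chaperone Pdia3 fell 1.41-fold (1.19 to 1.68), and Calr and the peptide transporter subunit Tap2 also fell. Tapbp and Canx did not pass: Tapbp (log2 change 0.07 ± 0.15, adjusted p = 0.79) and Canx (log2 change 0.06 ± 0.11, adjusted p = 0.782). Without NPC 9w replicate A 5 members rose.

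Of 14 members of the MHC class II list, none rose and 2 fell (14.3%, beside 7.77% of all genes). These were H2-DMa (2.08-fold) and H2-DMb2 (1.90-fold), which load peptides, and H2-DMa lost its call without NPC 9w replicate C (adjusted p = 0.0505). Cd74, the invariant chain, was at 6431, 4008, 3385 and 1761 normalized counts in WT and 9246, 4646 and 5272 in NPC, with wide and overlapping groups and an adjusted p of 0.283.

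Complement genes changed in both directions. Of 21 tested, 7 rose (33.3%, beside 11.2% of all genes) and 3 fell (14.3%, beside 7.77%), with a median of 0.45 (0.285 after quantile normalization). C2, a protease of the classical pathway, was at 51.1, 29.3, 29.8 and 17.6 normalized counts in WT and 1055, 1249.7 and 1236 in NPC and rose 38.2-fold (17.8 to 82.2). C3, the central component, was at 139, 108, 133 and 36.0 normalized counts in WT and 1187, 1084 and 1203 in NPC, with a WT replicate D below the other WT libraries and NPC libraries close together, and rose 12.4-fold (4.92 to 31.4). C3ar1, the receptor for its fragment, rose 1.94-fold (1.55 to 2.41), and Cd59a, which blocks the membrane attack complex, 4.11-fold (2.56 to 6.60). The subunits of C1q were among the most abundant transcripts and did not pass: C1qb (log2 change 0.45 ± 0.18, adjusted p = 0.0713) and C1qc (log2 change 0.46 ± 0.19, adjusted p = 0.0956). Itgam, described above, C5ar2 and Cfp were the members that fell, and 1 member fell when WT 9w replicate C or any single NPC 9w library was left out. Of 9 Fc receptor genes, Fcrl1 rose 2.94-fold (1.79 to 4.82) and Fcgr1, the high-affinity receptor for IgG, fell 1.67-fold (1.32 to 2.10) (2 fell without NPC 9w replicate B), shares near those of all genes (11.2% higher and 7.77% lower).

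Chemokine ligands and receptors changed in both directions. Of 23 ligands tested, 9 rose and 3 fell, with a median of 1.11, and of 17 receptors 3 rose and 6 fell, with a median of -0.35, or -0.11 when NPC 9w replicate C was left out. Cxcl10, a ligand that attracts T cells, was at 121, 114, 82.3 and 36.8 normalized counts in WT and 898, 679 and 812 in NPC and rose 9.72-fold (4.96 to 19.03). Ccl3, a ligand of Ccr1, was at 280.1, 225, 234 and 188 normalized counts in WT and 1468, 1298 and 6335 in NPC; NPC replicate C was several times above the other NPC libraries, all of which were above WT, and the rise was 9.95-fold (5.86 to 16.9). Cxcl16, which also takes up oxidized lipoprotein, rose 2.68-fold (1.97 to 3.64). Ccl24, an eosinophil attractant, fell 4.06-fold (2.78 to 5.92) from 356 ± 45.3 to 89.8 ± 31.5 normalized counts, and Ccl27a and Cxcl12 also fell. Ccl9 did not pass (Ccl9 (log2 change -0.31 ± 0.31, adjusted p = 0.544)).

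Among receptors, Ccr1 was at 1332, 2372, 1980.3 and 1124 normalized counts in WT and 258, 146 and 139 in NPC and fell 9.34-fold (6.16 to 14.2). Ccr6 fell 3.08-fold (2.48 to 3.84) from 7290.3 ± 709 to 2373 ± 344 normalized counts, and Cx3cr1, the receptor for the neuronal ligand fractalkine, fell 2.02-fold (1.57 to 2.61) from 144794 ± 25178 to 72159.9 ± 17187 normalized counts. The groups did not overlap in any of these, as in 2569 of the 2665 genes that passed. Receptors that rose were Cxcr4 (10.7-fold), Ackr3 (11.3-fold), both of which bind Cxcl12, and Ccrl2 (2.94-fold).

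Inflammatory cytokines and members of the NF-kB pathway moved in both directions. Of 38 tested, 10 rose (26.3%, beside 11.2% of all genes) and 5 fell (13.2%, beside 7.77%). The median was -0.05, with a sign that turned when WT 9w replicate C (0.06) was left out, and likewise NPC 9w replicate A (0.01). Il1b, the cytokine interleukin 1 beta, was at 472, 533, 510.0 and 594 normalized counts in WT and 1972, 1907 and 2383 in NPC and rose 3.95-fold (2.84 to 5.49). Tnf, tumour necrosis factor, was at 149, 198, 159.7 and 136 normalized counts in WT and 748, 592 and 594 in NPC and rose 4.00-fold (2.32 to 6.91). Csf1, the ligand of Csf1r, was at 527, 519, 519.9 and 481 normalized counts in WT and 3388, 3631 and 2508 in NPC and rose 6.12-fold (4.04 to 9.29). Nfkbia, the inhibitor that NF-kB itself induces, rose 2.40-fold (1.77 to 3.27), Nfkb2 rose 1.67-fold (1.38 to 2.03) and Tnfaip2 rose 4.08-fold (2.94 to 5.67). Rela, the main subunit, and Ptgs1 did not pass: Rela (log2 change 0.09 ± 0.09, adjusted p = 0.524) and Ptgs1 (log2 change -0.28 ± 0.13, adjusted p = 0.146). Nfkb1, Tgfb1, Casp8, Tnfrsf1b and Tnfaip8l2 fell; 2 members did without NPC 9w replicate A and 3 without replicate B.

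Of 30 Toll-like receptors and adaptors, 2 rose (6.67%, beside 11.2% of all genes) and 6 fell (20.0%, beside 7.77%), with a median of -0.22. Tlr5, the receptor for bacterial flagellin, was at 491, 569.6, 729 and 359 normalized counts in WT and 97.8, 89.3 and 43.8 in NPC and fell 7.07-fold (4.77 to 10.5). Tlr4, the receptor for bacterial lipopolysaccharide, fell 1.89-fold (1.44 to 2.47), and Tlr12 fell 2.33-fold (1.75 to 3.10). Without NPC 9w replicate C 3 members fell, and Tlr3 (adjusted p = 0.0533) and Tlr6 (adjusted p = 0.0633) were among those lost; with all libraries these fell 1.69-fold and 1.53-fold. Tlr2 was at 7728, 7734, 8687 and 7011 normalized counts in WT and 17167, 14084 and 11899.5 in NPC and rose 1.83-fold (1.33 to 2.52), a call lost without NPC 9w replicate A (adjusted p = 0.0569) and with a replicate block (adjusted p = 0.054). No member rose without NPC 9w replicate A, and 1 did without WT 9w replicate D. Unc93b1 and Ly86 did not pass: Unc93b1 (log2 change -0.27 ± 0.15, adjusted p = 0.241) and Ly86 (log2 change -0.16 ± 0.19, adjusted p = 0.621).

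Of 26 Siglecs and other inhibitory receptors, 10 rose and 7 fell, with a median of 0.37. Leaving out NPC 9w replicate C moved it to 0.75, and leaving out replicate A of that group to 0.20. Lilrb4, an inhibitory receptor of the leukocyte immunoglobulin-like family, rose 17.5-fold (9.75 to 31.3) from 294 ± 134 to 4948 ± 1768 normalized counts. Cd300lf, a receptor for phosphatidylserine, rose 11.7-fold (7.32 to 18.6), and Cd200r4 14.5-fold (7.61 to 27.5). Siglece, a sialic acid receptor, was at 2582, 3381, 3202 and 2775 normalized counts in WT and 1231, 998 and 1036 in NPC and fell 2.74-fold (2.14 to 3.50). The gene of the checkpoint receptor Vsir, listed as 4632428N05Rik, fell 1.78-fold (1.56 to 2.04) from 92448 ± 5207 to 51816 ± 2764 normalized counts. Sirpa, which binds the signal CD47, and Cd33 did not pass: Sirpa (log2 change 0.20 ± 0.11, adjusted p = 0.209) and Cd33 (log2 change 0.08 ± 0.13, adjusted p = 0.708). Lilrb4 and Cd200r4 belong to families of close copies, between which reads could have been split.

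**Figure D3:**
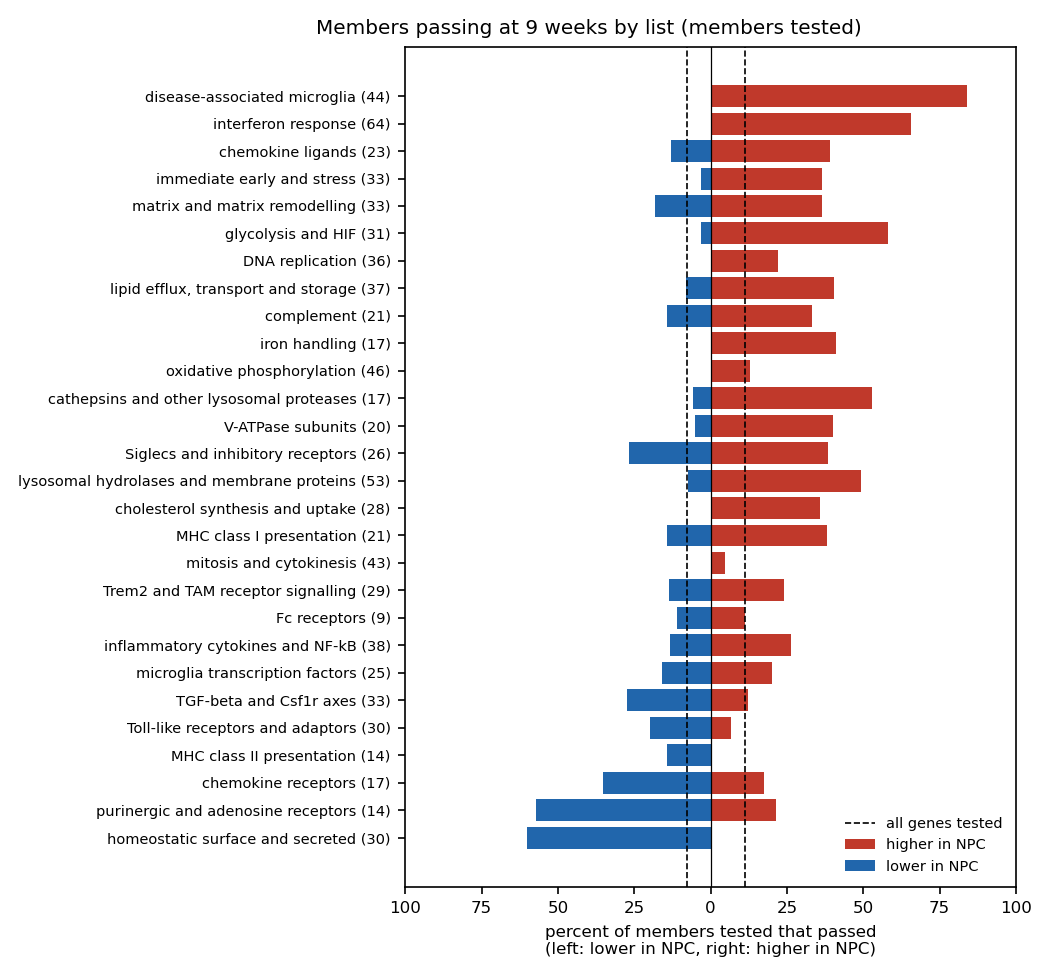
Percent of the members tested in each of 28 lists that rose (red, to the right) or fell (blue, to the left) in NPC at 9 weeks, with the number tested in parentheses and lists ordered by their median log2 change. Dashed lines mark the shares over all genes tested, 11.2% higher and 7.77% lower. Disease-associated and interferon genes had the longest bars to the right and homeostatic genes the longest to the left.

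The homeostatic list, which holds surface and secreted proteins that mark resting microglia, moved the opposite way. Of 30 members, none rose and 18 fell, beside 7.77% of all genes falling, with a median log2 change of -0.69. Selplg, the selectin ligand PSGL-1, was at 257302, 224503, 241014 and 250558 normalized counts in WT and 63560.2, 73289.8 and 66722 in NPC and fell 3.59-fold (2.76 to 4.66). Gpr56, an adhesion receptor, fell 2.37-fold (1.94 to 2.88) from 69423 ± 5977 to 29433 ± 3999.7 normalized counts, and the secreted Olfml3 fell 2.21-fold (1.81 to 2.70). P2ry12, the receptor by which processes move toward ATP and ADP, was at 174692, 208113, 237422 and 187125 normalized counts in WT and 93127, 128919 and 91634 in NPC and fell 1.94-fold (1.53 to 2.47). Slco2b1, a transporter, and Bin1, which bends membranes, fell 2.08-fold and 1.65-fold. The groups did not overlap for 22 of the 30, beside 38.2% of all genes. With array weights, or with the fit limited to these 7 libraries, 2 members were higher.

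Transcription factors of microglia identity moved in both directions. Of 25 tested, 5 rose (20.0%, beside 11.2% of all genes) and 4 fell (16.0%, beside 7.77%), with a median of -0.08. Sall1, which defines microglia among macrophages, was at 21743, 22833, 28755 and 25945 normalized counts in WT and 14689.5, 20058 and 17413 in NPC. All NPC libraries lay below all WT libraries, but Sall1 did not pass (log2 change -0.52 ± 0.23 SE, adjusted p = 0.121). Irf8, among the most abundant that did not pass, had a smaller change: Irf8 (log2 change -0.16 ± 0.10, adjusted p = 0.314). Batf rose 2.40-fold (1.73 to 3.32) while its relative Batf3 fell 2.03-fold (1.49 to 2.77), and Bhlhe41 fell 1.51-fold (1.22 to 1.88). Egr1, Nr4a1, Tfec and Bhlhe40 also rose. Leaving out WT 9w replicate D, NPC 9w replicate A or NPC 9w replicate B left 3 members higher, and leaving out WT 9w replicate D, NPC 9w replicate A or NPC 9w replicate C left 2 lower.

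The list of purinergic and adenosine receptors, which sense nucleotides and adenosine released by injured cells, also holds Entpd1, Gpr34 and Gpr183. Of its 14 genes, 3 rose and 8 fell, these 3 among the latter, with a median of -0.69. P2rx1, an ATP-gated channel, fell 3.12-fold (2.54 to 3.83) from 1524 ± 222 to 494 ± 116 normalized counts. Gpr183, which senses oxysterols made from cholesterol, fell 2.79-fold (2.08 to 3.73) from 13066 ± 840.2 to 4718 ± 727 normalized counts, the adenosine receptor Adora3 fell 2.03-fold (1.69 to 2.43), and Entpd1, which degrades extracellular ATP, fell 1.78-fold (1.45 to 2.18). P2ry2 rose 6.70-fold (4.03 to 11.2) from 230.3 ± 93.1 to 1458 ± 266 normalized counts, and P2rx4 and Adora2b also rose. P2rx7 and Adora1 did not pass: P2rx7 (log2 change -0.28 ± 0.11, adjusted p = 0.0748) and Adora1 (log2 change 0.70 ± 0.56, adjusted p = 0.434).

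In the TGF-beta and Csf1r axes, which maintain microglia, 4 of 33 genes rose (12.1%, beside 11.2% of all genes) and 9 fell (27.3%, beside 7.77%). The median was -0.13. Itgav, an integrin chain that frees latent TGF-beta, was at 3727, 4511, 6523 and 5289 normalized counts in WT and 2366, 3041 and 1894 in NPC and fell 2.05-fold (1.55 to 2.73). The cytokine receptor chains Il10ra, Il21r and Ifngr1 fell 1.65-fold to 1.95-fold. Csf2ra, a chain of the receptor for GM-CSF, rose 1.89-fold (1.44 to 2.49). The receptor Tgfbr1 did not pass (Tgfbr1 (log2 change -0.45 ± 0.21, adjusted p = 0.133)). Without WT 9w replicate D, or without NPC 9w replicate A, 5 members fell.

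Among 29 genes of Trem2 and of the TAM receptors Tyro3, Axl and Mertk, 7 rose (24.1%, beside 11.2% of all genes) and 4 fell (13.8%, beside 7.77%). The median of this list was 0.07 and was below 0 under both other scalings. Gas6, the ligand of Axl, was at 6227, 6778, 7071 and 5738 normalized counts in WT and 13251, 12692 and 11048 in NPC and rose 1.91-fold (1.58 to 2.32). Ms4a7 rose 13.6-fold (4.40 to 41.9) from 39.4 ± 28.4 to 446 ± 179 normalized counts, and Abi3, a regulator of actin, fell 1.72-fold (1.37 to 2.17). Itgb5 did not pass (Itgb5 (log2 change -0.49 ± 0.21, adjusted p = 0.0954)), nor did Mertk and Tyro3. Leaving out NPC 9w replicate A left 4 members that rose, and after rescaling to the same total 8 fell.

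Of 31 genes of glycolysis and of the hypoxia factor HIF, 18 rose and 1 fell, with a median of 0.63. Pkm, the pyruvate kinase of the last step, was at 11575, 9373, 9504 and 10309 normalized counts in WT and 24806, 29228 and 26132 in NPC and rose 2.62-fold (2.15 to 3.21) (adjusted p = 2.1e-08). Hif1a rose 2.40-fold (1.93 to 2.98) from 4495 ± 579.9 to 11019 ± 3362 normalized counts. Aldoa, Tpi1, Gapdh and Gpi1, enzymes of the middle of the pathway, rose 1.78-fold to 2.05-fold. Pfkfb3 and Pgd did not pass: Pfkfb3 (log2 change 0.47 ± 0.20, adjusted p = 0.101) and Pgd (log2 change 0.13 ± 0.10, adjusted p = 0.419). Hk3 was the member that fell.

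Subunits of the respiratory chain had a median of 0.44 over 46 genes, and 6 passed, all higher, a share near the 11.2% of all genes that rose. Atp5b, the catalytic subunit of the ATP synthase, rose 1.54-fold (1.24 to 1.93) from 15136 ± 689 to 23366 ± 920.3 normalized counts, and Sdha, of complex II, 1.45-fold (1.21 to 1.74). Sdhd and Uqcrc1 did not pass: Sdhd (log2 change 0.56 ± 0.24, adjusted p = 0.104) and Uqcrc1 (log2 change 0.41 ± 0.21, adjusted p = 0.175). The count was 27 with the fit limited to the 7 libraries, 24 with array weights, 15 without NPC 3w replicate C in the fit, 2 without NPC 9w replicate A and 3 when NPC 9w replicate C was left out.

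Of 17 genes of iron handling, 7 rose and none fell, with a median of 0.45. Fth1 and Ftl1, the chains of the iron store ferritin, were high in all NPC libraries, Fth1 at 25051, 18465, 17099 and 17877 normalized counts in WT and 92621, 56779.5 and 70273 in NPC, and rose 3.70-fold (2.55 to 5.37) and 3.38-fold (2.31 to 4.95). Slc11a2, which moves iron out of endosomes, rose 1.99-fold (1.67 to 2.38), and Hmox1, which frees iron from haem, 2.25-fold (1.74 to 2.92). Slc40a1, the iron exporter, and Slc11a1 did not pass: Slc40a1 (log2 change -0.33 ± 0.16, adjusted p = 0.162) and Slc11a1 (log2 change -0.14 ± 0.14, adjusted p = 0.567). After rescaling to the same total, 2 members were lower.

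Genes of the extracellular matrix and its remodelling held 12 rises and 6 falls among 33 tested, with a median of 0.80. The median was 1.31 without NPC 9w replicate A, where 10 rose and 4 fell, and 1.37 in edgeR. Hpse, Lox, Serpinf1 and Hs3st2, described above, belong to this list and are part of its counts. Like the other lists, it was chosen with earlier results of these data known. Mmp2, a gelatinase, was at 4745, 4468, 5785 and 4490.0 normalized counts in WT and 2089, 2156 and 2005 in NPC and fell 2.33-fold (1.97 to 2.75), while Mmp12, a macrophage elastase, rose. Timp2, an inhibitor of Mmp2, rose 2.54-fold (2.07 to 3.11) from 22462 ± 542 to 57135 ± 4555 normalized counts, and Plaur, the receptor for urokinase, rose 8.20-fold (5.31 to 12.7) while urokinase, Plau, fell. Loxl3 and Tgfbi did not pass: Loxl3 (log2 change 0.13 ± 0.12, adjusted p = 0.51) and Tgfbi (log2 change 0.30 ± 0.18, adjusted p = 0.249).

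Genes of DNA replication rose in part. Of 36 tested, 8 rose (22.2%, beside 11.2% of all genes), with a median of 0.49. Of 43 genes of mitosis and cytokinesis 2 rose (4.65%), less than the share of all genes. The median of the mitosis list was 0.15. It was -0.0071 after quantile normalization, 0.28 when WT 9w replicate B was left out and 0.30 when NPC 9w replicate C was. None fell in either list. Mcm6, of the replicative helicase, was at 466, 430.4, 419.7 and 331 normalized counts in WT and 779, 953 and 657 in NPC and rose 1.92-fold (1.43 to 2.59). Pcna, the sliding clamp, rose 1.84-fold (1.36 to 2.48) from 698 ± 83.3 to 1280.3 ± 111 normalized counts, and Mcm3 rose 1.55-fold (1.25 to 1.92). Kif2c, a kinesin of the centromere, was at 126, 120.4, 195 and 116 normalized counts in WT and 437, 278 and 426 in NPC and rose 2.73-fold (2.03 to 3.65), and Stmn1, which destabilizes microtubules, rose 2.13-fold (1.48 to 3.09). Cdk1 did not pass (at 195, 192, 183 and 148 normalized counts in WT and 311, 281 and 231 in NPC, adjusted p = 0.123), and neither did Mki67 and Top2a. Racgap1 and Tacc3, the most abundant mitosis genes that did not pass, had these changes: Racgap1 (log2 change 0.05 ± 0.19, adjusted p = 0.885) and Tacc3 (log2 change 0.32 ± 0.22, adjusted p = 0.351). Without NPC 9w replicate A or replicate B 5 replication genes rose, with a replicate block 4, and with array weights 16.

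The promoter of Mcm6 (chr1:128359656-128359955 on the minus strand) is shown because it holds E2F motifs (TTTGGCGC, TTTCGCGC, TTTGGCGG or TTTCCCGC on either strand), and that of Kif2c (chr4:117178723-117179022 on the minus strand) because it holds a cell cycle homology motif (TTTGAA or TTCGAA on either strand). Both come from RefSeq as above, with matches in capitals.
Mcm6: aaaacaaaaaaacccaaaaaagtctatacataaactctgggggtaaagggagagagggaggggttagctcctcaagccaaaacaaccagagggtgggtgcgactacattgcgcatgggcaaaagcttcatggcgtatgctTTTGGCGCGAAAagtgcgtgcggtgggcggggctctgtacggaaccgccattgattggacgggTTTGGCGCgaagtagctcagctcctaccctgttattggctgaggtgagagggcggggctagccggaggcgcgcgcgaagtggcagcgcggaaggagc
Kif2c: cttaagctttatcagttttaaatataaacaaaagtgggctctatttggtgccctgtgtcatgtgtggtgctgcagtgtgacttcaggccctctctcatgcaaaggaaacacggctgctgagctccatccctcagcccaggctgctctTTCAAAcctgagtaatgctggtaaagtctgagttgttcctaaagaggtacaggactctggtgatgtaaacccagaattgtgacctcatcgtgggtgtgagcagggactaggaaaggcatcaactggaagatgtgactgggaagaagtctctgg

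Mcm6 held 3 E2F matches, a pair of which overlap, and Kif2c held 1 match to TTTGAA on its opposite strand. E2F motifs were found in 12 of 30 replication promoters and in 4.89% of all, and the cell cycle homology motif in 28 of 36 mitosis promoters (77.8%) and in 16.3% of all.

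Among immediate early and stress genes, NPC replicate C had the highest levels of Fos, Jun, Egr1 and Dusp1. Of 33 tested, 12 rose and 1 fell, with a median of 0.90 that was 0.55 without that library. Fos was at 151, 76.4, 137 and 51.9 normalized counts in WT and 340.2, 146 and 3284 in NPC, with NPC replicate C far above all others and the remaining libraries overlapping. Its rise of 5.69-fold (2.45 to 13.2) lost its call without NPC 9w replicate C (adjusted p = 0.0665) and in the fit limited to the 7 libraries (adjusted p = 0.134). Dusp1, a phosphatase that ends kinase signals, was at 524, 311, 301 and 245 normalized counts in WT and 1737, 824 and 10941 in NPC, with replicate C again highest, all NPC libraries above WT, and a rise of 7.54-fold (3.69 to 15.4) that lost its call in the fit limited to the 7 libraries (adjusted p = 0.0596). Jun reached 5129, 4508 and 46696 in NPC beside 4826, 4830.3, 5380.5 and 4191 in WT and did not pass (adjusted p = 0.0711). Egr1 was at 729, 548, 567 and 396 normalized counts in WT and 1657, 1079 and 5089 in NPC and rose 3.81-fold (2.30 to 6.31); Atf3, Ier3 and Nr4a1 rose 2.17-fold to 3.50-fold, and these 4 kept their calls in every alternative that was run. In place of 1 member, 4 fell without NPC 9w replicate C. Whether the level of these genes in replicate C bears on other genes high in that library, such as Ccl3, was not tested.

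Markers of other cells were far below those of microglia in summed level. Myelin and oligodendrocyte markers summed to 6772 to 7137 normalized counts in WT and 8461 to 17620 in NPC, replicate A being highest, and 1 of 14 tested rose (11.2% of all genes did). That gene was Mbp, at 2716, 2521, 2278 and 2638 normalized counts in WT and 12516, 7284 and 3928 in NPC; its call was lost without NPC 9w replicate A (adjusted p = 0.209), NPC 9w replicate B (0.0752), WT 9w replicate B (0.0502) or WT 9w replicate C (0.0607) and with a replicate block (0.0755), while 2 members passed without NPC 9w replicate C. Cnp, also of myelin, did not pass, at 2944 ± 179.5 normalized counts in WT and 3187 ± 403 in NPC. Astrocyte and Bergmann glia markers summed to 8803 to 9568 in WT and 10110 to 14000 in NPC, again highest in replicate A. Of 15 tested, 3 rose (20.0%, beside 11.2% of all genes). Gfap, the intermediate filament of reactive astrocytes, was at 73.6, 62.8, 75.4 and 80.3 normalized counts in WT and 2280.4, 1157 and 801 in NPC and rose 17.4-fold (7.12 to 42.6), a call that held in every alternative. Hopx and Sox9 rose as well, but without NPC 9w replicate A Gfap alone passed. Slc1a3, the most abundant of these markers, did not pass (Slc1a3 (log2 change -0.04 ± 0.16, adjusted p = 0.891)).

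Neuron markers summed to at most 405.8 normalized counts in any library, and none of 15 passed in either direction. Markers of border-associated macrophages summed to 15190 to 20750 in WT and 21860 to 22220 in NPC, most of it Stab1 (Stab1 (log2 change 0.25 ± 0.33, adjusted p = 0.658)), and 4 of 11 rose, among them Mrc1 (2.53-fold), Ms4a7 and Siglec1, while Lyve1 and F13a1 did not pass. Endothelial markers summed to 1688 to 2081 in WT and 1539 to 2469 in NPC. Of 14 tested, 1 was higher and 1, Pecam1 (2.64-fold), lower, 7.14% each way beside 11.2% and 7.77% of all genes. None was higher without WT 9w replicate A or D or NPC 9w replicate A or B, or in edgeR. Monocyte and neutrophil markers summed to 312.0 to 1459 in WT and 362.5 to 755.6 in NPC. Ccr2 was the 1 of 15 that fell (6.67%, beside 7.77% of all genes), and 3 fell without WT 9w replicate D. Lymphocyte markers summed to 560.6 to 828.1 in WT and 822.5 to 886.1 in NPC. Cd2 was the 1 of 5 tested that rose (20.0%, beside 11.2% of all genes), and Cd8a, Klrb1c and Ncr1 stayed under 3 reads in all 7 libraries. Erythrocyte markers summed to at most 341.5, none of the 2 tested passed and the haemoglobin genes were under 3 reads in all 7 libraries. The part of these cells in the results above was not tested.

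The 9 week difference was set beside that at 6 weeks, its nearest in age, in which 1230 genes were higher and 913 lower in NPC. Of the 2665 genes that passed at 9 weeks, 1494 also passed at 6 weeks (56.1% of the 9 week and 69.7% of the 6 week calls), and all 1494 had the same direction. A test of the difference between the ages found no gene past an adjusted p of 0.05 in limma (0.0% of 14046), with 628 genes at an unadjusted p below 0.05, none in edgeR and 20 in DESeq2, of which 7 were more positive and 13 more negative at 9 weeks. The 1171 genes that passed at 9 but not at 6 weeks are therefore not shown to differ between the ages.

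Among genes given above, log2 changes at 6 and 9 weeks were close for some and apart for others, and those with the largest changes were chosen by their 9 week values. Hpse had log2 changes of 5.37 ± 0.37 (SE) at 6 and 5.44 ± 0.40 at 9 weeks, and Cst7 of 3.57 ± 0.29 and 4.12 ± 0.32. Apoe had 1.51 ± 0.41 and 2.98 ± 0.44, and Tmem119 -0.80 ± 0.16 and -1.11 ± 0.17. Serpinf1 had -3.13 ± 0.18 and -3.33 ± 0.20. Plet1 had 2.18 ± 0.98 at 6 and 5.78 ± 1.06 at 9 weeks, Hs3st2 -3.85 ± 0.68 and -5.60 ± 0.74, and Adra2a -2.13 ± 0.47 and -4.07 ± 0.51. Of 43 mitosis genes, 29 were higher at 6 weeks and 2 at 9 weeks, beside 1230 and 1574 of all 14046 genes. The median difference of the mitosis genes, 9 minus 6 weeks, was -0.94, beside 0.0369 over all genes. An unadjusted p below 0.05 in limma was reached by 19 of them, all negative, and by 628 of all genes. After adjustment no mitosis gene passed in limma with all 31 libraries or in edgeR. In DESeq2 2 did, in limma with array weights 2 and in limma without NPC 3w replicate C 1. Monocyte and neutrophil markers had a median difference of -2.03 over 15 genes, with 1 at an unadjusted p below 0.05 (7 with array weights) and none past adjustment in limma, edgeR or DESeq2, and their part in the mitosis difference was not tested. Of 36 DNA replication genes, 19 were higher at 6 weeks and 8 at 9 weeks, with a median difference of -0.30. In limma with all 31 libraries 10 of these differences had an unadjusted p below 0.05, all negative. After adjustment no replication gene passed there or in edgeR. In DESeq2 1 did, in limma with array weights 2 and in limma without NPC 3w replicate C 1.

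**Figure D4:**
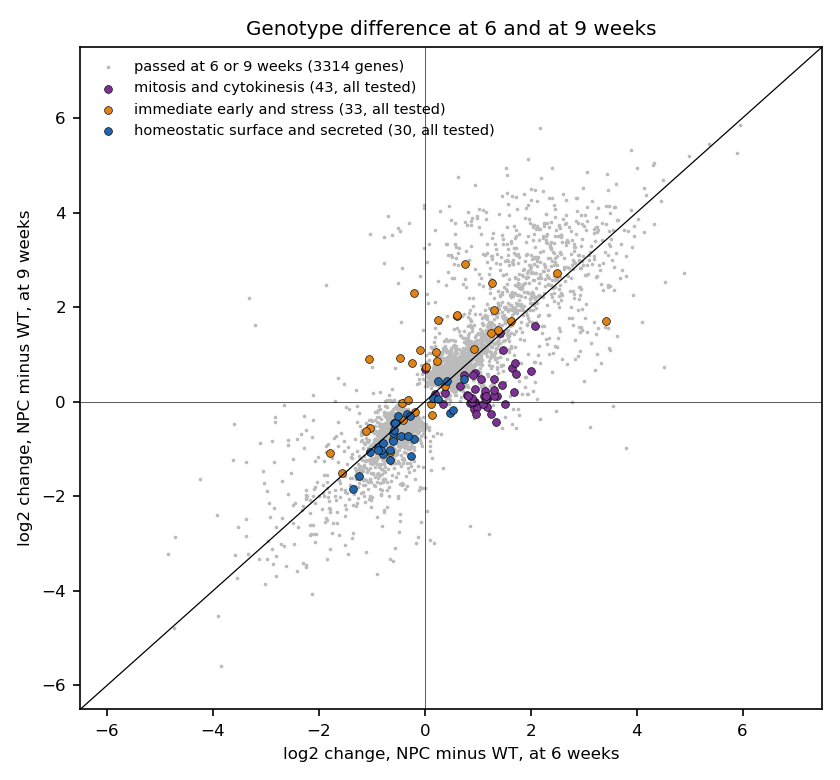
Log2 change in NPC against WT at 9 weeks (vertical axis) against that at 6 weeks (horizontal axis) for genes that passed at either age (grey), with all tested members of 3 lists in colour and the line of equal change. Mitosis genes (purple) lie below the line, and homeostatic genes (blue) lie mostly in the lower left.

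**Figure D5:**
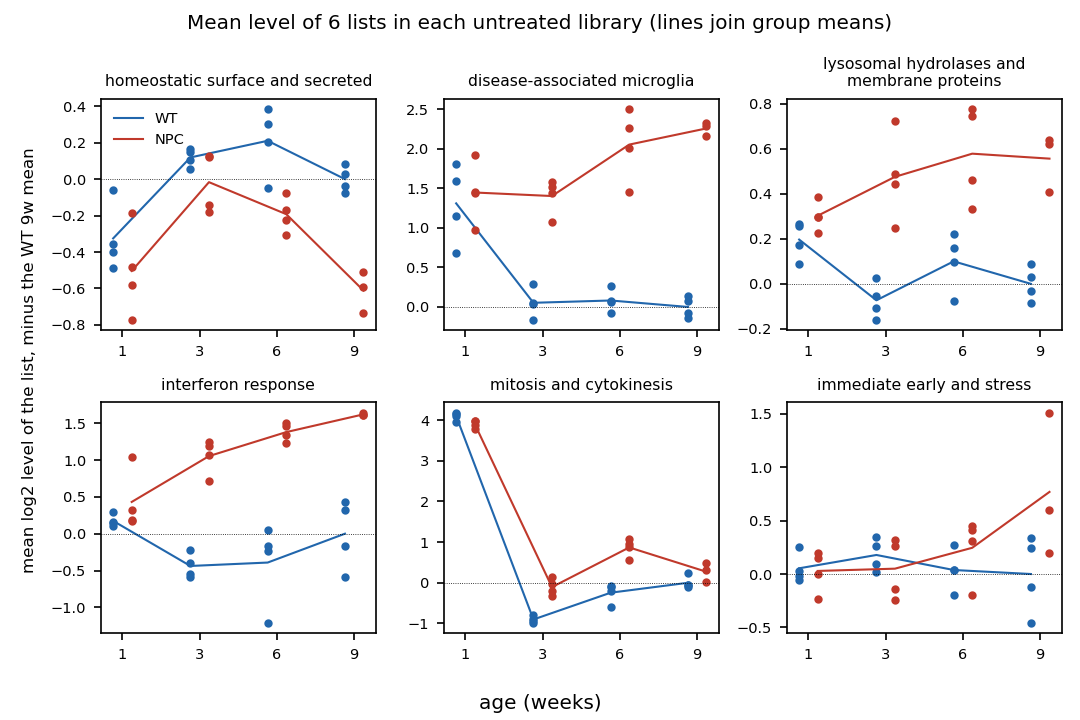
Mean log2 level of the members of 6 lists in each of the 31 untreated libraries (vertical axes, as a difference from the WT mean at 9 weeks) by age in weeks, with WT in blue and NPC in red and lines joining group means. At 9 weeks the NPC points of the disease-associated and interferon lists lie above all WT points, those of the homeostatic list below, and the immediate early list has 1 NPC library far above the others.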

How the data were processed

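The deposited table holds normalized counts per gene from the authors, a signal whose whole-number steps show gene counts scaled by a single factor in each library. From the submitters' processing notes, FastQC 0.11.4, STAR 2.5.1b, DESeq2 and mouse build mm9 were used; the annotation and the counting tool are not given in the sources used here. In every library 100.0% of values were whole multiples of 1 step within a tolerance of 1e-06, which gave whole reads.

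The log2(value + 1) was fitted in limma 3.58.1 under R 4.3.3 (trend and robust options, two-sided) in 1 fit of the 31 untreated libraries in 8 groups, with 23 residual degrees of freedom, keeping the 14046 of 24015 genes that reached 10 normalized counts in 3 or more libraries. P-values were adjusted by Benjamini and Hochberg's method across the genes tested. Alternatives covered the pseudocount, filter, scaling, a replicate block, array weights, which libraries entered, single libraries left out, and count tests on the recovered reads (edgeR 4.0.16, DESeq2 1.42.0); fits without NPC 3w replicate C or NPC 6w replicates B and C were added after seeing the data. The main fit was also run on simulated counts, and the outcome is not reported here.

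The comparison, the 28 gene lists and the 9 marker lists were chosen with earlier results of these data known. Of their 1012 entries, 4 were not matched. Values are given for the 20 largest rises and falls (adjusted p under 0.05, mean of at least 100 in the higher group, no overlap, no clone name), for the 6 members of a list with the smallest adjusted p and the 2 most abundant that did not pass, and for 16 genes set by name; some genes that the rule names are not reported here. The rule's last part, genes at 0 in 1 group, found none. Promoters were read from a RefSeq table for 11123 of the genes tested.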

Additional observations from a re-analysis of the deposited data

Results flagged for a closer look

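Among 190 genes given with values, the 4 WT libraries were examined for 1 library far from the other 3 by Dixon's ratio of the gap to the range, at its 95% critical value. Chance alone gives this in about 1 of 20 groups, and it was found for 7 genes. WT replicate A was far above the others for B2m (30002.4) and Cd63 (9066.4), replicate B for Ifit1 (219.9), and replicate C for Cx3cr1 (182105.2) and Kif2c (195.5), all in normalized counts. WT replicate D was far below the others for C3ar1 (8545.1) and Csf1 (481.0). The groups of 3 NPC libraries are too small for this check. In limma with all 31 libraries no gene passed the test of the difference between 9 and 6 weeks, and 628 had an unadjusted p below 0.05. None passed in edgeR, 20 did in DESeq2, 38 in limma with array weights and 12 in limma without NPC 3w replicate C.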

How the results depend on the processing

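The direction of every gene that passed and is given with values was kept in each alternative run, and 9 of them lost their call in 18 fits that are named beside them in the report. Of the 47 genes given with values that did not pass, 16 failed to pass under every setting. Whether the others passed depended on the setting. The counts of genes higher and lower at 9 weeks, 1574 and 1091, were 2651 and 2139 with array weights and 2355 and 2074 in the fit limited to the 7 libraries. Without NPC 3w replicate C in the fit they were 2118 and 1634, and without single 9 week libraries 998 to 1382 and 643 to 918. They were 1422 and 1116 in edgeR and 1731 and 1286 in DESeq2. With a replicate block they were 1229 and 756. Deviations from the group means correlated at 0.060 between the 2 A libraries, 0.074 between the B and -0.0075 between the C libraries. A and B libraries thus correlated best with their own letter and C libraries did not. These values do not settle whether letters pair the libraries, and the main fit did not use the letters. The causes were not tested.

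For the difference between 9 and 6 weeks, the counts of genes more positive and more negative at 9 weeks were 0 and 0 in the analysis as reported. More positive genes numbered 20 with array weights, 1 in the fit limited to the 15 libraries, 5 without NPC 3w replicate C in the fit and 7 in DESeq2. More negative genes numbered 18, 0, 7 and 13 in the same order. They numbered 1 after rescaling to the same total, 4 after quantile normalization, and 0 to 2 when single 6 or 9 week libraries were left out. Of 1480 counts of list members over lists, directions and alternatives, 1343 stayed within 1.5 times the main count. With 3 NPC libraries, the spread within that group rests on few libraries.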
